A study of Homo sapiens with 12 samples.

Results

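The genes examined here are 50 listed genes of DNA replication and of the E2F program: E2F transcription factors, E-type cyclins, the origin recognition complex, licensing factors, the MCM helicase and its activators, the replicative polymerases, the sliding clamp and its loader, and enzymes of deoxynucleotide supply. Of the 50, 48 were found among the 16599 genes of the count table, and all 48 passed the filter on low counts. E2F8 and UHRF1 were not analysed here. Members were listed by name, and the listing rule uses no measured value. They were, however, chosen with earlier results of these data known.

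Polyadenylated RNA was sequenced from A549 and H1650, established lines grown from human lung adenocarcinomas, with 3 libraries in each of 4 groups. The groups were untreated A549, A549 over-expressing the splicing factor SRSF2, untreated H1650 and H1650 over-expressing SRSF2. The untreated libraries have NC in their titles with no key to it, and the construct, the promoter and the number of clones behind the over-expression are not given in the sources used here. Whether the 3 libraries of a group came from separate cultures is not stated either. The p-values then rest on the spread between these libraries, which may be technical.

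Total counts ran from 23876899 to 32079027 per library. Levels are given in CPM (counts per 1e6 counts, with totals corrected by TMM factors), and a gene was called higher or lower at an edgeR adjusted p under 0.05 over the 15991 genes tested. SRSF2 was not analysed here, and the labels were therefore not checked against its level. Of 5 epithelial markers, the keratins KRT8 and KRT18 were high in both lines, with KRT8 at 5008 ± 165 CPM in untreated A549 and 4213 ± 140.1 in untreated H1650 (mean ± SD, n = 3). The other 3 were far lower in A549: KRT19 was at 97.9 ± 1.23 CPM in untreated A549 against 1304 ± 5.61 in untreated H1650, and the adhesion genes CDH1 and EPCAM at 38.2 ± 3.07 and 5.72 ± 0.451 against 1309 ± 19.3 and 307 ± 9.64. These markers moved with SRSF2 as well. In A549, KRT19 rose by log2 0.30 and the other 4 fell, by up to -0.63 (EPCAM) and -0.54 (CDH1). In H1650, KRT19 fell by log2 -1.06 and CDH1 by -0.09, while EPCAM, KRT18 and KRT8 rose by 0.23, 0.20 and 0.09. COL1A1, the fibroblast marker found in the table, was at 12.8 ± 1.40 and 8.87 ± 0.927 CPM in untreated and SRSF2 A549, and at 9.98 ± 0.653 and 6.63 ± 1.37 in H1650. The part of these markers in the results was not tested. Markers of leukocytes, endothelial and erythroid cells were not analysed here. The H1650 SRSF2 libraries varied most, with a common biological coefficient of variation of 0.0560 against 0.0298 to 0.0342 in the other groups. The main fit shares 1 estimate of the spread over the 4 groups, so SEs and p-values in H1650 may be too small.

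E2F transcription factors bind the promoters of genes needed to enter and pass S phase, and are held in check by the retinoblastoma protein until cyclin-dependent kinases phosphorylate it. In G1, the origin recognition complex, CDC6 and CDT1 load the ring of MCM2 to MCM7 onto DNA, a step called licensing. In S phase, CDC45 and the GINS complex turn that ring into a moving helicase, and the polymerases follow it with PCNA as their sliding clamp. Many of these transcripts, though not all, peak around the entry into S phase. A lower level of such a transcript in a bulk library may come from fewer cells in that phase or from less RNA per cell. These possibilities cannot be told apart here.

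In A549, 39 of 48 members fell with SRSF2 over-expression, 0 rose and 9 were not called. Of all genes tested, 15.9% were called lower and 16.4% higher, against 81.2% and 0.0% of the members. The median log2 fold change of the members was -0.27, with a range from -0.79 to 0.08, against 0.00 over all genes. All members of several role groups fell: 2 of 2 E-type cyclins, 3 of 3 licensing factors, 6 of 6 MCM subunits, 6 of 6 helicase activation factors and 4 of 4 genes of nucleotide supply. Of the origin recognition complex, 2 of 6 subunits fell. Summed over the 48 members, counts made up 0.565% to 0.575% of the library total in untreated A549 and 0.459% to 0.464% in SRSF2 A549.

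In H1650 the members went both ways: 14 rose, 22 fell and 12 were not called. The 29.2% called higher was near the background of 31.0% of all genes, while the 45.8% called lower stood beside a background of 31.3%. The median log2 fold change was -0.10, against 0.00 over all genes. Genes that rose included 2 of 3 licensing factors, 3 of 6 origin recognition subunits and 3 of 6 clamp and loader genes. Genes that fell included 4 of 4 E2F factors and 6 of 9 polymerase and primase genes, with 0 of either group higher. The split depended on scaling: with plain library totals in place of TMM, 9 members were called higher and 26 lower. ORC1, ORC4, MCM2, GINS3 and TK1 then lost their call as higher. All genes shifted too, with 4116 called higher and 5947 lower, against 4954 and 5003 in the main fit. With DESeq2 size factors the members stayed at 14 higher and 22 lower. Without H1650 SRSF2 replicate 3 the counts were 14 higher and 21 lower, and without replicate 2 they were 12 and 20.

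**Figure D1:**
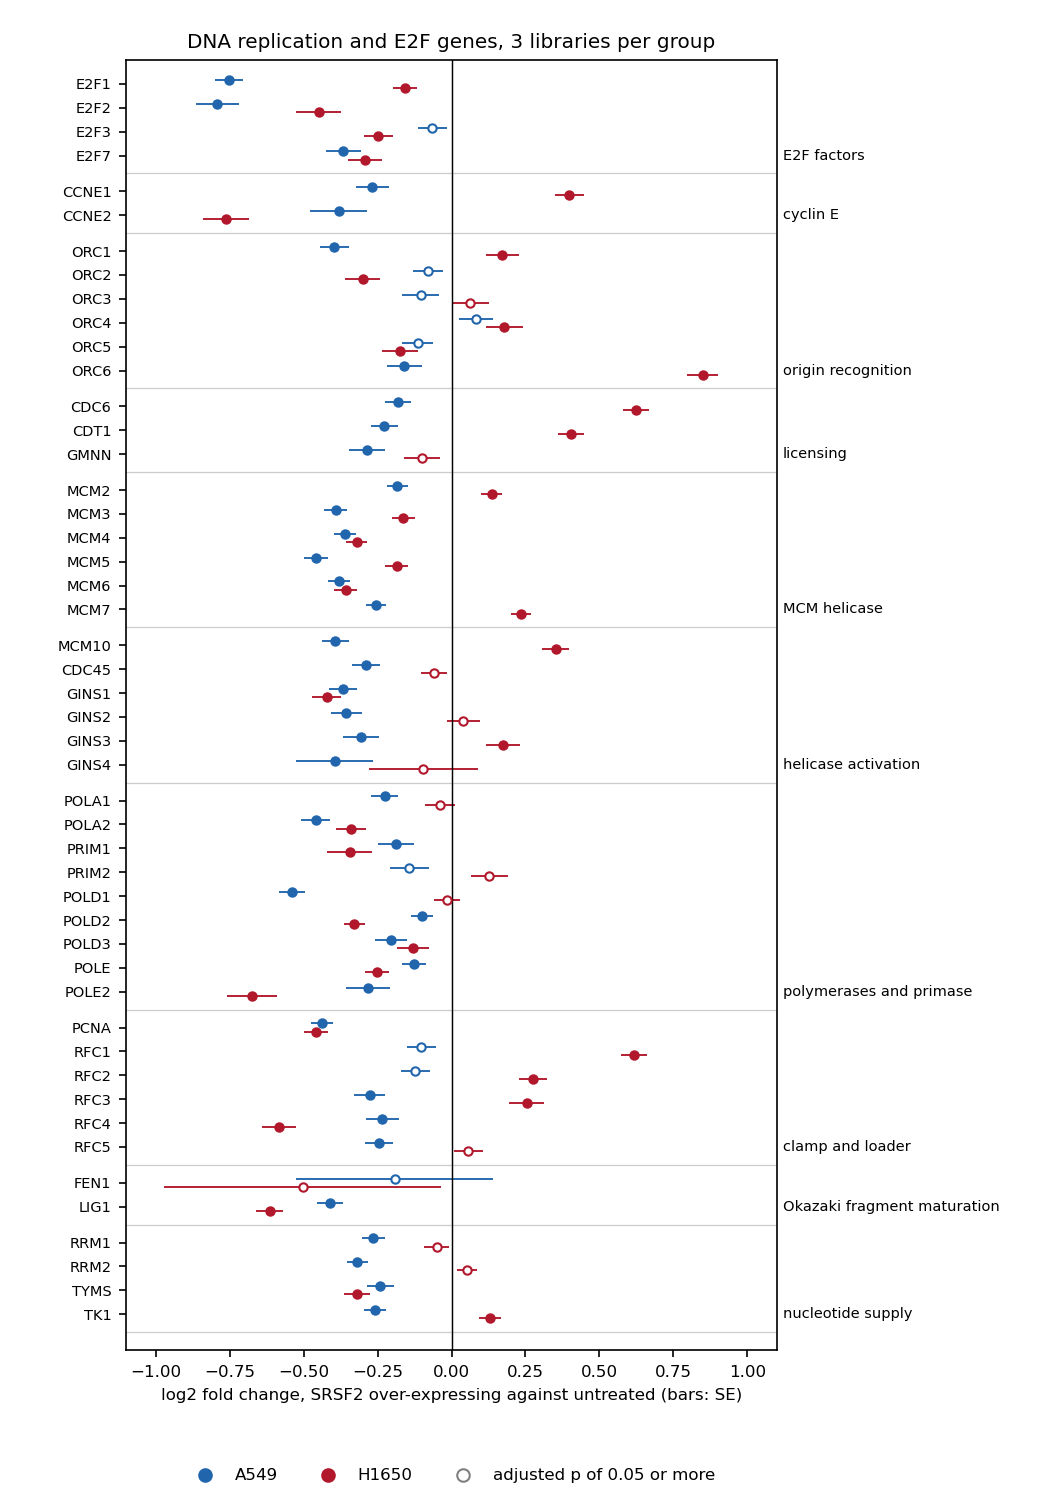
Log2 fold change of SRSF2 over untreated libraries for the 48 members (one per line of the vertical axis, grouped by role), in A549 and in H1650, with error bars. Points for A549 lie between -0.79 and 0.08, while those for H1650 reach from -0.76 (CCNE2) to 0.85 (ORC6).

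The difference of the effects, A549 minus H1650, was tested as an interaction. It was called for 32 members, 25 lower and 7 higher in A549, that is 52.1% and 14.6% of the members against 23.5% and 24.0% of all genes. For 11 members the fall in A549, the rise in H1650 and the difference were each called: CCNE1, CDC6, CDT1, GINS3, MCM10, MCM2, MCM7, ORC1, ORC6, RFC3 and TK1. Another 10 fell in both lines with no called difference, namely E2F7, GINS1, MCM4, MCM6, PCNA, POLA2, POLD3, POLE, PRIM1 and TYMS. A further 4 fell in both lines and more in A549 (E2F1, E2F2, MCM3 and MCM5), and 5 fell in both and more in H1650 (CCNE2, LIG1, POLD2, POLE2 and RFC4). Opposite calls in the 2 lines nearly fix the call of the difference, so for the 11 members it adds little. The shares of all genes with these joint patterns were not counted, so no pattern can be called particular to the members. Across the 48 members the effects in the 2 lines had a Pearson r of 0.30 and a Spearman rho of 0.30, given as a description, since genes of a library are not independent and the lines share no library.

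**Figure D2:**
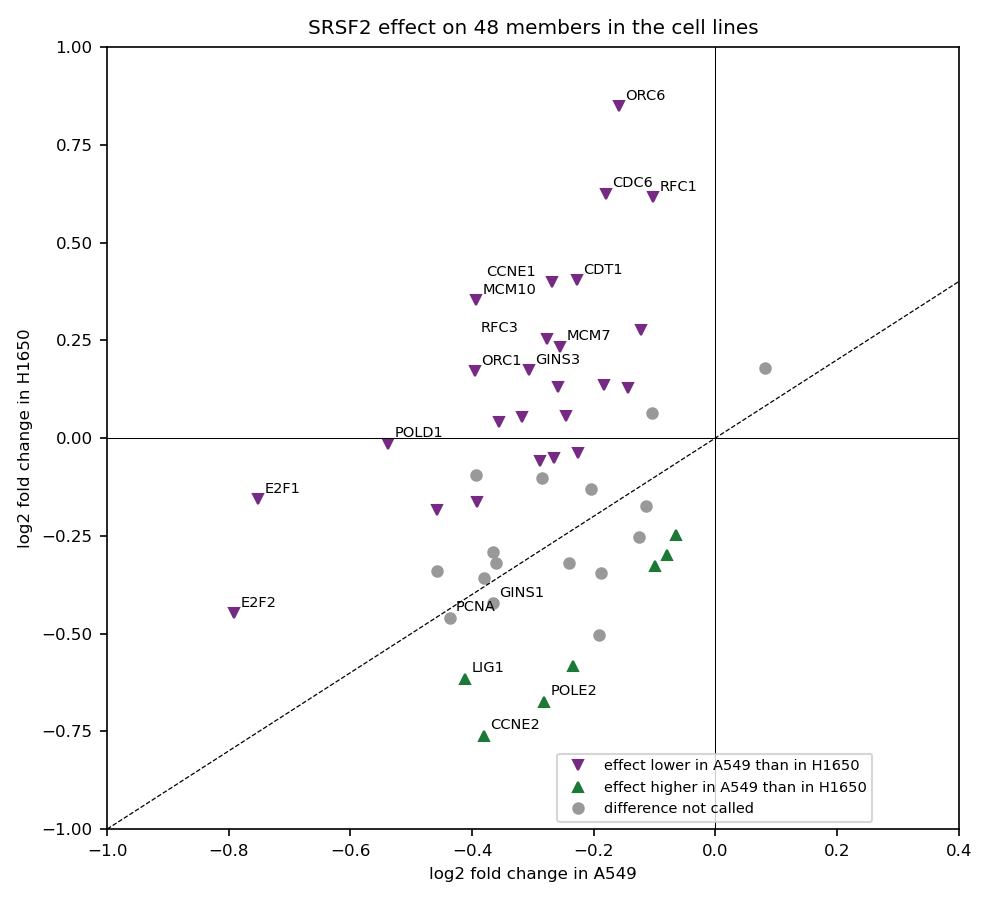
Each point is 1 of 48 members, with its log2 fold change in A549 on the horizontal axis and in H1650 on the vertical axis, and the dashed line marks equal effects. Triangles mark members whose effects differed by the interaction test (25 pointing down, 7 pointing up), and ORC6, CDC6 and RFC1 stand highest on the H1650 axis.

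The lines also differed before any treatment. In untreated H1650, 12 members were higher and 31 lower than in untreated A549, which is 25.0% and 64.6% of the members against 40.1% and 42.3% of all genes. The median log2 difference, H1650 minus A549, was -0.32 against -0.04 over all genes. Both E-type cyclins were higher in H1650, whereas 6 of 6 MCM subunits and 5 of 6 origin recognition subunits were lower. This comparison uses the same untreated libraries as the SRSF2 comparisons.

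The E2F factors fell in both lines except for E2F3 in A549. E2F1, an activator known to drive many of the other members (chromosome 20, 33675683 to 33686404, in GENCODE 29 on GRCh38, like all gene positions here), measured 103, 106 and 98.8 CPM in the untreated A549 libraries and 56.6, 62.8 and 63.2 CPM in the SRSF2 libraries. The groups did not overlap, and the fall was log2 -0.75, SE 0.05, edgeR adjusted p = 8.84e-15. In H1650, E2F1 measured 192, 194 and 204 CPM in the untreated libraries and 173, 184 and 173 CPM in the SRSF2 libraries. These ranges also lay apart, by less (log2 -0.16, SE 0.04, edgeR adjusted p = 0.0017). The fall was larger in A549, with a difference of log2 -0.59, SE 0.06, edgeR adjusted p = 1.09e-09. Untreated H1650 held more E2F1 than untreated A549 (log2 0.94, SE 0.04, edgeR adjusted p = 3.13e-20), and SRSF2 H1650 libraries stayed above every A549 library.

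E2F2, another activator of the family (chromosome 1, 23506430 to 23531220), measured 28.1, 28.8 and 28.96 CPM in the untreated A549 libraries and 15.6, 16.9 and 17.1 CPM in the SRSF2 libraries. Every SRSF2 library was below every untreated one, and this was the largest fall of any member in A549 (log2 -0.79, SE 0.07, edgeR adjusted p = 1.32e-10). In H1650 the values were 18.4, 18.9 and 20.1 CPM in the untreated libraries and 14.7, 12.3 and 14.97 CPM in the SRSF2 libraries. The fall there (log2 -0.45, SE 0.08, edgeR adjusted p = 4.59e-06) was smaller than in A549 by the interaction test (log2 -0.34, SE 0.11, edgeR adjusted p = 0.00728).

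E2F3, the third activator, which gives rise to more than one protein form (chromosome 6, 20401906 to 20493715), measured 49.8, 54.2 and 53.5 CPM in the untreated A549 libraries and 49.4, 48.8 and 52.5 CPM in the SRSF2 libraries. These groups overlapped, and the change was not called (log2 -0.07, 95% interval -0.17 to 0.04). Values in H1650 were 65.04, 66.4 and 63.5 CPM in the untreated libraries and 53.1, 55.5 and 55.6 CPM in the SRSF2 libraries. All SRSF2 libraries were lower there (log2 -0.25, SE 0.05, edgeR adjusted p = 3.40e-05). The difference between lines, A549 minus H1650 (log2 0.18, SE 0.07, edgeR adjusted p = 0.0283), lost its call with DESeq2 and without any one of 4 libraries: A549 untreated replicate 1, A549 SRSF2 replicate 3, H1650 untreated replicate 2 and H1650 SRSF2 replicate 1.

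E2F7, an atypical family member that represses E2F targets (chromosome 12, 77021247 to 77065580), measured 39.4, 37.99 and 39.9 CPM in the untreated A549 libraries and 31.3, 29.9 and 29.9 CPM in the SRSF2 libraries. In H1650 the values were 38.05, 37.1 and 37.3 CPM in the untreated libraries and 30.7, 28.1 and 32.9 CPM in the SRSF2 libraries. The groups lay apart in both lines, and the SRSF2 libraries were the lower ones (log2 -0.36, SE 0.06, edgeR adjusted p = 6.13e-06 in A549 and log2 -0.29, SE 0.06, edgeR adjusted p = 4.25e-05 in H1650). The difference was not called (log2 -0.07, 95% interval -0.24 to 0.09). Per kilobase of exon, the ratio of E2F7 to E2F1 was 0.152 ± 0.00891 in untreated and 0.199 ± 0.0182 in SRSF2 A549 (mean ± SD, n = 3, ranges apart) and 0.0757 ± 0.00304 and 0.0690 ± 0.00761 in H1650, where the ranges overlapped. A ratio of this kind shows unequal change only.

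**Figure D3:**
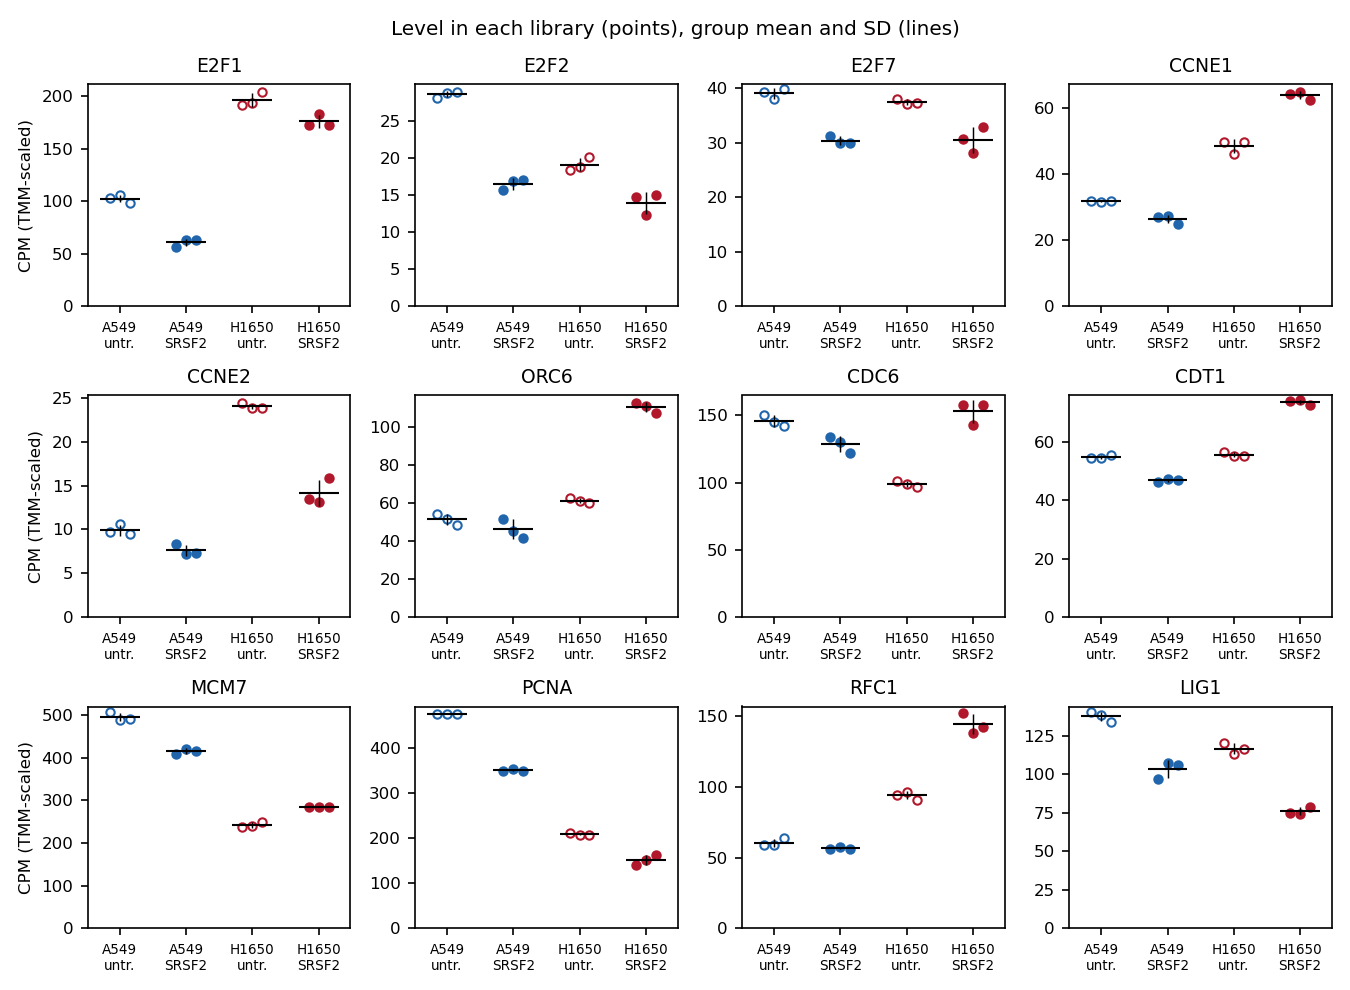
CPM of selected members in each of the 12 libraries, with 1 point per library, a bar at the group mean and a separate vertical axis for each gene. E2F1 is lowest in the A549 SRSF2 libraries, and ORC6 stands at 108 to 113 CPM in the H1650 SRSF2 libraries against 41.5 to 62.8 in all others.

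The promoters of these genes were searched for letters known as an E2F motif. RefSeq promoter windows on GRCh38.p14, from 250 bases before to 50 bases after a gene's first listed start, matched 43 of the 48 members by symbol, and 11 members have several listed starts. The motif searched on both strands was TTTCCCGC, TTTGGCGC or TTTCGCGC, and matches of these variants on opposite strands can overlap. It was found in 21 of 43 member promoters (48.8%), against 4.3% of the 11242 promoters of tested genes and 2.8% of all 27305. The members were listed as genes of replication and of the E2F program, so this excess is no independent result. The CCAAT box was found in 55.8% of member promoters against 35.7% of tested genes. The cell cycle homology region (TTTGAA or TTCGAA), which marks genes that peak later in the cycle, was found in 7.0% against 11.5%. With the 100 bases before the start alone the E2F share was 30.2% against 1.5%.

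**Figure D4:**
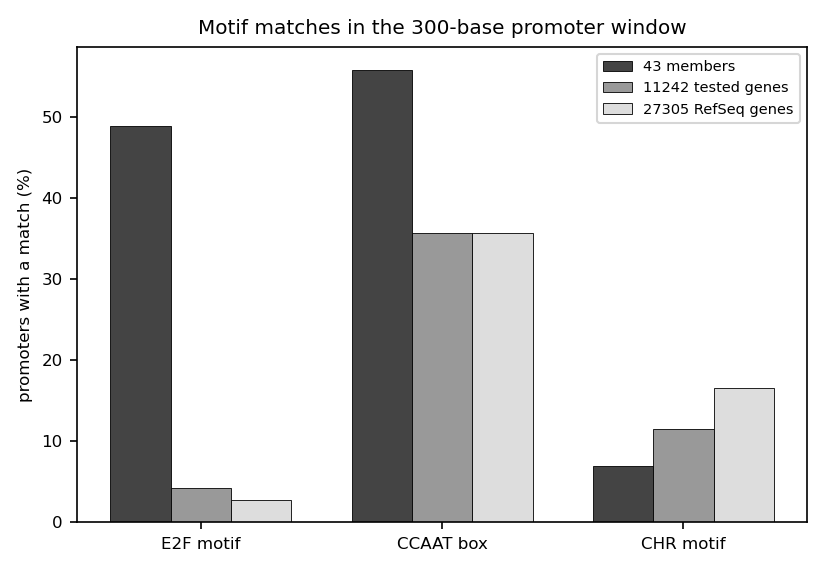
Share of 300-base promoter windows (vertical axis, percent) with at least 1 match to the E2F motif, the CCAAT box or the cell cycle homology region, for 43 members, 11242 tested genes and 27305 RefSeq genes. The E2F motif is in 48.8% of member windows against 4.3% and 2.8% of the others, and the members were listed as E2F and replication genes.

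Promoters are shown for 7 members, as the 120 bases just before the start, read 5′ to 3′ on the gene's strand, with the letters that match the E2F motif on either strand in capitals. E2F1, E2F2, PCNA and MCM6 fell in both lines, CDT1 and MCM7 fell in A549 and rose in H1650, and ORC6, which had the largest rise in H1650, has no match in its window. Stretches are E2F1 at chr20:33686386-33686505 on the minus strand, E2F2 at chr1:23531234-23531353 on the minus strand, PCNA at chr20:5126623-5126742 on the minus strand, MCM6 at chr2:135876444-135876563 on the minus strand, CDT1 at chr16:88803669-88803788 on the plus strand, MCM7 at chr7:100101398-100101517 on the minus strand and ORC6 at chr16:46689539-46689658 on the plus strand.
E2F1: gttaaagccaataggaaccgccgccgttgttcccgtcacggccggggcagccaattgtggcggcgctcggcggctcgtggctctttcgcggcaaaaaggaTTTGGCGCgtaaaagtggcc
E2F2: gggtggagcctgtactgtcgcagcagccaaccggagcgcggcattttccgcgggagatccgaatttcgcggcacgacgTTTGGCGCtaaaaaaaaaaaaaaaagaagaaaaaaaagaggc
PCNA: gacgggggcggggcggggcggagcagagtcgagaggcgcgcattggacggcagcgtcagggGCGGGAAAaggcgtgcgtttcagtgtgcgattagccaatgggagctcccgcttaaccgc
MCM6: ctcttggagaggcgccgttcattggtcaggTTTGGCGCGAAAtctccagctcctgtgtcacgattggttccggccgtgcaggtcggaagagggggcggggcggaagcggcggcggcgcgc
CDT1: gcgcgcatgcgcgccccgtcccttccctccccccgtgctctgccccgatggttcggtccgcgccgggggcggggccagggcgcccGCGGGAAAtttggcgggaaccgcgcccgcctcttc
MCM7: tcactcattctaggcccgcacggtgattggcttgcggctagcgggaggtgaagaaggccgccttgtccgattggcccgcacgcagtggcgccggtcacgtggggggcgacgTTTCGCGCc
ORC6: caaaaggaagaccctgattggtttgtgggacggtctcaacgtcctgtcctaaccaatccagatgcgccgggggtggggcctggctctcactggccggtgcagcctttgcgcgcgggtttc

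A match of letters is a description, not a binding site, and its part in any change was not tested. Matches were in 19 of 34 promoters of members that fell in A549 and in 2 of 9 of those not called. In H1650 they were in 12 of 18 promoters of members that fell, 6 of 14 of those that rose and 3 of 11 of those not called. The median log2 fold change in A549 was -0.28 for the 21 members with a match and -0.24 for the 22 without. In H1650 it was -0.16 with a match and 0.02 without.

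The E-type cyclins, which activate CDK2 at the entry into S phase, parted in H1650. CCNE1 (cyclin E1, chromosome 19, 29811898 to 29824308) measured 31.9, 31.6 and 31.96 CPM in the untreated A549 libraries and 26.9, 27.3 and 25.1 CPM in the SRSF2 libraries. The SRSF2 libraries were all lower (log2 -0.27, SE 0.06, edgeR adjusted p = 0.000303). In H1650, CCNE1 measured 49.8, 46.03 and 49.8 CPM in the untreated libraries and 64.3, 64.95 and 62.6 CPM in the SRSF2 libraries. Here the SRSF2 libraries were all higher (log2 0.40, SE 0.05, edgeR adjusted p = 1.28e-08), and the effects differed between lines (log2 -0.67, SE 0.07, edgeR adjusted p = 3.91e-09).

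CCNE2 (cyclin E2, chromosome 8, 94879770 to 94896678) measured 9.67, 10.6 and 9.44 CPM in the untreated A549 libraries and 8.30, 7.23 and 7.34 CPM in the SRSF2 libraries. Levels in H1650 were 24.4, 23.9 and 23.9 CPM in the untreated libraries and 13.5, 13.1 and 15.8 CPM in the SRSF2 libraries. Both falls separated the groups (log2 -0.38, SE 0.10, edgeR adjusted p = 0.0022 in A549 and log2 -0.76, SE 0.08, edgeR adjusted p = 2.22e-10 in H1650), and the one in H1650 was the largest of any member there. It exceeded that in A549 (log2 0.38, SE 0.12, edgeR adjusted p = 0.0116). Of the exon bases of CCNE2, 37.1% are shared with INTS8, and whether counting used strand is not given in the sources used here, so reads of these genes may be mixed. Per kilobase, the ratio of CCNE2 to CCNE1 was 0.288 ± 0.0117 in untreated and 0.128 ± 0.0159 in SRSF2 H1650, with ranges apart. In A549 it was 0.181 ± 0.0128 and 0.168 ± 0.0126, with overlapping ranges.

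The subunits of the origin recognition complex, which marks the sites where replication can begin, did not move together. ORC6, its smallest subunit (chromosome 16, 46689643 to 46698394), measured 54.4, 51.8 and 48.7 CPM in the untreated A549 libraries and 51.8, 45.5 and 41.5 CPM in the SRSF2 libraries. These groups overlapped, and the small fall (log2 -0.16, SE 0.06, edgeR adjusted p = 0.033) lost its call in both fits on the authors' FPKM values and without any one of 4 libraries: untreated replicates 1 and 2 and SRSF2 replicates 2 and 3. In H1650, ORC6 measured 62.8, 61.1 and 60.1 CPM in the untreated libraries and 113, 111 and 108 CPM in the SRSF2 libraries. This was the largest rise of any member (log2 0.85, SE 0.05, edgeR adjusted p = 1.03e-15). The difference between lines was also the largest (log2 -1.01, SE 0.08, edgeR adjusted p = 1.00e-12).

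ORC1, the ATPase subunit whose amount varies over the cell cycle, fell in A549 (log2 -0.40, SE 0.05, edgeR adjusted p = 1.04e-07) and rose in H1650 (log2 0.17, SE 0.06, edgeR adjusted p = 0.00793), the latter with TMM scaling and not with plain totals. ORC2 and ORC5, which belong to the stable core, fell in H1650 by log2 -0.30 and -0.17, and in A549 they were not called (log2 -0.08, 95% interval -0.18 to 0.02 and log2 -0.11, 95% interval -0.22 to -0.01). The call for ORC5 was lost without H1650 SRSF2 replicate 2. ORC4 was called higher in H1650 (log2 0.18, SE 0.06, edgeR adjusted p = 0.0131) although its groups overlapped, and that call was lost with plain totals and without H1650 SRSF2 replicate 2 or untreated replicate 3. ORC3 was called in neither line (log2 -0.10, 95% interval -0.23 to 0.02 in A549 and log2 0.06, 95% interval -0.06 to 0.19 in H1650).

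The licensing factors fell in A549, and the loaders CDC6 and CDT1 rose in H1650. CDC6, the ATPase that loads the MCM ring (chromosome 17, 40287633 to 40304657), measured 150.5, 145 and 142 CPM in the untreated A549 libraries and 134, 130.4 and 122 CPM in the SRSF2 libraries. The fall was small, with no overlap (log2 -0.18, SE 0.04, edgeR adjusted p = 0.00164). Its levels in H1650 were 102, 99.3 and 96.8 CPM in the untreated libraries and 158, 143 and 158 CPM in the SRSF2 libraries. The SRSF2 libraries of H1650 thus reached the CDC6 level of untreated A549 (log2 0.62, SE 0.04, edgeR adjusted p = 2.22e-14 for the rise and log2 -0.81, SE 0.06, edgeR adjusted p = 8.10e-13 for the difference between lines).

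CDT1, which brings the MCM ring to the origin (chromosome 16, 88803213 to 88809258), measured 54.5, 54.4 and 55.7 CPM in the untreated A549 libraries and 46.3, 47.2 and 47.1 CPM in the SRSF2 libraries. In H1650 it measured 56.6, 55.4 and 55.2 CPM in the untreated libraries and 74.05, 74.3 and 72.7 CPM in the SRSF2 libraries. The groups lay apart in both lines, downward in A549 (log2 -0.23, SE 0.05, edgeR adjusted p = 0.000175) and upward in H1650 (log2 0.40, SE 0.04, edgeR adjusted p = 6.93e-10). The difference was called (log2 -0.63, SE 0.06, edgeR adjusted p = 3.27e-10), whereas the untreated lines had overlapping levels (log2 0.02, 95% interval -0.07 to 0.11). GMNN, which encodes geminin, the inhibitor of CDT1, fell in A549 (log2 -0.28, SE 0.06, edgeR adjusted p = 0.000323) and was not called in H1650 (log2 -0.10, 95% interval -0.23 to 0.03). Per kilobase, the ratio of GMNN to CDT1 was 0.965 ± 0.0718 in untreated and 0.680 ± 0.0529 in SRSF2 H1650 (mean ± SD, n = 3), with ranges apart. It was 1.27 ± 0.0648 and 1.22 ± 0.0626 in A549, with overlapping ranges.

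All 6 subunits of the MCM helicase fell in A549, by log2 -0.18 (MCM2) to -0.46 (MCM5). MCM5 (chromosome 22, 35400063 to 35425430) measured 263, 254 and 245 CPM in the untreated A549 libraries and 179.5, 188 and 188 CPM in the SRSF2 libraries. Values in H1650 were 209.5, 205 and 217 CPM in the untreated libraries and 179, 186 and 191 CPM in the SRSF2 libraries. The groups lay apart in both lines, with the larger fall in A549 (log2 -0.46, SE 0.04, edgeR adjusted p = 2.00e-11, against log2 -0.18, SE 0.04, edgeR adjusted p = 9.75e-05 in H1650, and log2 -0.27, SE 0.06, edgeR adjusted p = 9.01e-05 for the difference). In H1650 the ring split: MCM3, MCM4, MCM5 and MCM6 fell, while MCM7 rose by log2 0.23 and MCM2 by 0.14. The rise of MCM2 was not called with plain totals.

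In H1650, MCM6 measured 136, 137 and 134 CPM in the untreated libraries and 105, 104 and 108 CPM in the SRSF2 libraries, with no overlap. MCM7, by contrast, measured in the same line 238, 239 and 249 CPM in the untreated libraries and 285, 284 and 285 CPM in the SRSF2 libraries, also with no overlap and in the other direction. The interaction was called for MCM2, MCM3, MCM5 and MCM7, and not for MCM4 (log2 -0.04, 95% interval -0.14 to 0.06) or MCM6 (log2 -0.02, 95% interval -0.13 to 0.09). Reads of MCM2 and MCM7 may include those of overlapping genes, since 23.6% and 8.9% of their exon bases are shared.

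The 6 proteins assemble in equal numbers, and their transcripts were compared per kilobase of exon. By group means on this length MCM7 was highest and MCM5 lowest in every group, although in SRSF2 H1650 MCM5 and MCM6 (25.7 ± 0.495 CPM per kilobase) differed by less than their SD. MCM7 stood at 113 ± 2.29 CPM per kilobase in untreated A549, 94.5 ± 1.54 in SRSF2 A549, 55.2 ± 1.43 in untreated H1650 and 64.9 ± 0.128 in SRSF2 H1650 (mean ± SD, n = 3). MCM5 stood at 34.6 ± 1.22, 25.2 ± 0.626, 28.7 ± 0.849 and 25.2 ± 0.818 CPM per kilobase in the same order. The ratio of highest to lowest was 3.26 ± 0.0766 and 3.75 ± 0.0482 in untreated and SRSF2 A549, and 1.93 ± 0.0302 and 2.58 ± 0.0812 in H1650. The ratio was higher with SRSF2 in each line by more than the SD of the libraries. The sum over the 6 was 361 ± 2.68 and 289.7 ± 4.27 CPM per kilobase in A549, and 237.5 ± 1.60 and 229 ± 3.79 in H1650. With the authors' FPKM values, whose gene length often includes introns, MCM6 and not MCM5 was lowest in every group. The ratio of MCM7 to MCM6 was then 8.84, 9.65, 7.13 and 10.8 in the same order, so both the lowest subunit and the size of the ratio depend on the length used.

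**Figure D5:**
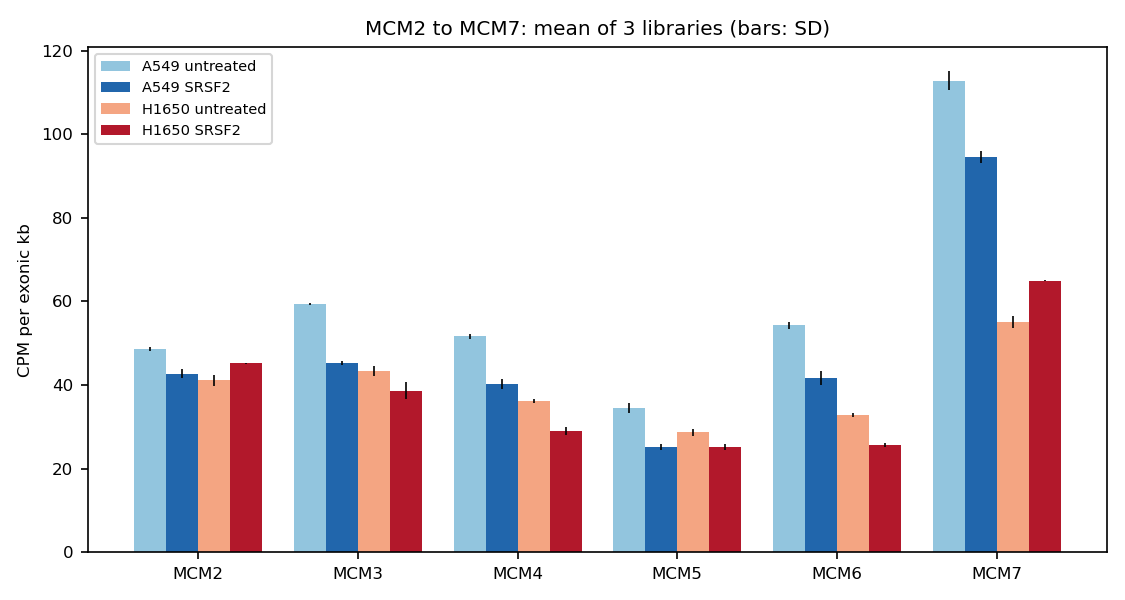
Level of MCM2 to MCM7 in CPM per exonic kilobase (vertical axis, from 0), as mean of 3 libraries with SD bars, in the 4 groups. MCM7 is highest in every group, and in H1650 MCM2 and MCM7 are higher and MCM3 to MCM6 lower with SRSF2.

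The factors that turn the loaded ring into a helicase all fell in A549, 6 of 6, and were mixed in H1650. The A549 call of one of them, GINS4 (log2 -0.39, SE 0.13, edgeR adjusted p = 0.0183), was lost without SRSF2 replicate 1, SRSF2 replicate 2 or untreated replicate 1. MCM10, which acts when the helicase is set in motion (chromosome 10, 13161554 to 13211104), measured 96.4, 105 and 105 CPM in the untreated A549 libraries and 82.2, 76.5 and 74.5 CPM in the SRSF2 libraries. Levels in H1650 were 74.5, 75.5 and 73.7 CPM in the untreated libraries and 98.7, 94.8 and 92.2 CPM in the SRSF2 libraries. It fell in A549 (log2 -0.39, SE 0.05, edgeR adjusted p = 2.55e-08) and rose in H1650 (log2 0.35, SE 0.05, edgeR adjusted p = 3.90e-08), with no overlap in either line and a called difference (log2 -0.74, SE 0.07, edgeR adjusted p = 1.48e-11). Of the helicase cofactors, CDC45 fell in A549 by log2 -0.29 and was not called in H1650 (log2 -0.06, 95% interval -0.15 to 0.03).

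The 4 GINS genes, which encode one complex, differed among themselves in H1650. In that line GINS1 measured 66.4, 63.7 and 68.2 CPM in the untreated libraries and 46.05, 48.8 and 53.04 CPM in the SRSF2 libraries, and fell there (log2 -0.42) and in A549 (log2 -0.37). GINS3 measured, in H1650 too, 29.5, 28.8 and 28.7 CPM in the untreated libraries and 31.1, 34.2 and 32.8 CPM in the SRSF2 libraries, and rose there by log2 0.17 against a fall in A549 (log2 -0.31). That rise was not called with plain totals or without H1650 SRSF2 replicate 2. GINS2 fell in A549 (log2 -0.35) and was not called in H1650 (log2 0.04, 95% interval -0.07 to 0.15). GINS4 was scarce, at 1.47 to 7.78 CPM over the libraries, and its interval in H1650 was wide (log2 -0.10, 95% interval -0.47 to 0.28). For GINS4 and GINS3, 23.6% and 10.9% of exon bases overlap other genes.

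Among the polymerases and primase, 8 of 9 genes fell in A549 and 6 of 9 in H1650. POLD1, the catalytic subunit of the lagging-strand polymerase delta (chromosome 19, 50384204 to 50418016), measured 143, 139.9 and 130.5 CPM in the untreated A549 libraries and 94.2, 95.99 and 94.4 CPM in the SRSF2 libraries. Its fall in A549 separated the groups and was the largest of this role group (log2 -0.54, SE 0.04, edgeR adjusted p = 1.06e-11). Its levels in H1650 were 123, 119 and 133 CPM in the untreated libraries and 127, 121 and 124 CPM in the SRSF2 libraries. Those groups overlapped (log2 -0.01, 95% interval -0.10 to 0.07), and the difference between lines was called (log2 -0.52, SE 0.06, edgeR adjusted p = 1.24e-08).

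POLE2, the second subunit of the leading-strand polymerase epsilon (chromosome 14, 49643555 to 49688422), measured 26.2, 24.1 and 25.4 CPM in the untreated A549 libraries and 20.5, 22.4 and 19.3 CPM in the SRSF2 libraries. In H1650 it measured 14.9, 15.4 and 15.7 CPM in the untreated libraries and 9.12, 8.77 and 10.8 CPM in the SRSF2 libraries. The order was opposite to that of POLD1: both falls separated the groups, and the one in H1650 (log2 -0.67, SE 0.09, edgeR adjusted p = 1.92e-08) exceeded that in A549 (log2 -0.28, SE 0.07, edgeR adjusted p = 0.00333), with a difference of log2 0.39, SE 0.11, edgeR adjusted p = 0.00423. The difference was not called in the fit on log2(FPKM + 1). POLE, the catalytic subunit of the same enzyme, fell by log2 -0.13 in A549, a call lost without SRSF2 replicate 2 or untreated replicate 2, and by -0.25 in H1650. The accessory subunit POLD2 fell by log2 -0.10 and -0.33, with the A549 call lost without any one of 5 libraries, namely all 3 untreated A549 libraries and SRSF2 replicates 1 and 2.

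POLA1 and POLA2, subunits of the polymerase alpha that extends primers, fell in A549 by log2 -0.23 and -0.46. In H1650, POLA2 fell by log2 -0.34, while POLA1 was not called (log2 -0.04, 95% interval -0.14 to 0.06). The primase gene PRIM1 fell in both lines (log2 -0.19 and -0.34), with the A549 call lost without SRSF2 replicate 2 or untreated replicate 1. PRIM2, the other primase gene, was called in neither (log2 -0.14, 95% interval -0.28 to -0.01 in A549 and log2 0.13, 95% interval 0.003 to 0.25 in H1650). For POLA2 and PRIM1, 35.1% and 21.6% of exon bases overlap other genes. POLD3, another delta subunit, fell by log2 -0.20 in A549 and -0.13 in H1650, where its groups overlapped and the call was lost in several refits, among them the one without SRSF2 replicate 3.

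PCNA, the sliding clamp that tethers the polymerases (chromosome 20, 5114953 to 5126626), fell in both lines. It measured 475, 476 and 475 CPM in the untreated A549 libraries and 349.7, 354 and 349 CPM in the SRSF2 libraries. Values in H1650 were 212, 208 and 208 CPM in the untreated libraries and 141, 152 and 163 CPM in the SRSF2 libraries. No groups overlapped (log2 -0.44, SE 0.04, edgeR adjusted p = 4.38e-11 in A549 and log2 -0.46, SE 0.04, edgeR adjusted p = 3.50e-12 in H1650), and the difference had a narrow interval around 0 (log2 0.02, 95% interval -0.09 to 0.13). In the untreated lines, PCNA was lower in H1650 by log2 -1.18.

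The clamp loader, a complex of RFC1 to RFC5 that opens PCNA and places it on DNA, was split. RFC1, its large subunit (chromosome 4, 39287456 to 39366375), measured 58.9, 59.2 and 63.9 CPM in the untreated A549 libraries and 55.96, 57.3 and 56.4 CPM in the SRSF2 libraries. These values did not overlap, but the change was not called (log2 -0.10, 95% interval -0.20 to -0.004). Levels in H1650 were 94.5, 96.8 and 90.99 CPM in the untreated libraries and 152, 138 and 142 CPM in the SRSF2 libraries. This rise (log2 0.62, SE 0.04, edgeR adjusted p = 2.61e-14) ranked beside that of CDC6, and the lines differed (log2 -0.72, SE 0.07, edgeR adjusted p = 3.41e-11).

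RFC4, a small loader subunit (chromosome 3, 186789880 to 186807058), measured 49.6, 44.1 and 46.3 CPM in the untreated A549 libraries and 38.4, 41.6 and 38.98 CPM in the SRSF2 libraries. Its levels in H1650 were 42.3, 39.8 and 42.0 CPM in the untreated libraries and 26.7, 27.98 and 28.1 CPM in the SRSF2 libraries. It fell in both lines with no overlap (log2 -0.23, SE 0.06, edgeR adjusted p = 0.00108 in A549 and log2 -0.58, SE 0.06, edgeR adjusted p = 6.40e-11 in H1650), and more in H1650 (log2 0.35, SE 0.08, edgeR adjusted p = 0.00039). The subunits RFC2 and RFC3 rose in H1650 by log2 0.28 and 0.25 while RFC4 fell there. The rise of RFC3 was not called in either fit on the authors' FPKM values. RFC5, with 10.6% of its exon bases overlapping other genes, was not called in H1650 (log2 0.06, 95% interval -0.04 to 0.16) and fell in A549 by log2 -0.25. RFC2 in A549 was near the threshold (log2 -0.12, SE 0.05, edgeR adjusted p = 0.0548) and was called lower there by DESeq2 and in other refits.

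LIG1, the ligase that joins Okazaki fragments (chromosome 19, 48115445 to 48170603), measured 140.3, 138 and 134 CPM in the untreated A549 libraries and 96.8, 107 and 106 CPM in the SRSF2 libraries. In H1650 it measured 120.5, 113 and 116 CPM in the untreated libraries and 75.01, 74.3 and 79.1 CPM in the SRSF2 libraries. Both falls separated the groups (log2 -0.41, SE 0.04, edgeR adjusted p = 3.11e-09 in A549 and log2 -0.61, SE 0.04, edgeR adjusted p = 3.91e-14 in H1650), with the larger one in H1650 (log2 0.20, SE 0.06, edgeR adjusted p = 0.00692). FEN1, the flap nuclease that trims the same fragments, had only 2 to 37 counts per library. So few are unusual for a replication gene in dividing cells, and 8.7% of its exon bases overlap TMEM258 on the other strand; the cause of the low counts was not tested. A change of the size seen for LIG1 was not detectable with these counts (log2 -0.19, 95% interval -0.87 to 0.48 in A549 and log2 -0.50, 95% interval -1.46 to 0.45 in H1650).

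Genes of deoxynucleotide supply fell in A549, 4 of 4. RRM2, the small subunit of ribonucleotide reductase that accumulates in S phase (chromosome 2, 10120698 to 10131419), measured 323, 312 and 309 CPM in the untreated A549 libraries and 258, 253 and 246 CPM in the SRSF2 libraries. This fall separated the groups (log2 -0.32, SE 0.04, edgeR adjusted p = 5.62e-09). Values in H1650 were 378, 378 and 371 CPM in the untreated libraries and 385, 389 and 395 CPM in the SRSF2 libraries. The SRSF2 values were all slightly higher there, the change was not called (log2 0.05, 95% interval -0.02 to 0.12), and the lines differed (log2 -0.37, SE 0.05, edgeR adjusted p = 8.99e-08).

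RRM1, the large subunit, fell in A549 by log2 -0.27 and was not called in H1650 (log2 -0.05, 95% interval -0.14 to 0.04). Per kilobase, the ratio of RRM2 to RRM1 was 1.20 ± 0.0581 in untreated and 1.16 ± 0.0153 in SRSF2 A549, with overlapping ranges. It was 3.66 ± 0.127 and 3.93 ± 0.103 in H1650, with ranges apart. Of the exon bases of RRM2, 20.2% overlap other genes, so its reads may be mixed with theirs. TYMS, the thymidylate synthase, fell in both lines (log2 -0.24 and -0.32), but 46.6% of its exon bases are shared with ENOSF1. TK1, the thymidine kinase of the salvage route, fell in A549 by log2 -0.26. It rose in H1650 by log2 0.13 with TMM scaling, a call that plain totals did not give.

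Per kilobase of exon, PCNA and TK1 were the most abundant members in all 4 groups. PCNA led in A549 with 323 ± 0.230 CPM per kilobase in untreated and 239 ± 2.04 in SRSF2 libraries, and TK1 led in H1650 with 155 ± 6.37 and 169.9 ± 1.26. FEN1 and GINS4 had the lowest values in every group, with FEN1 at 0.431 ± 0.0644 in untreated A549 and 0.173 ± 0.0384 in untreated H1650. How reads were assigned to FEN1 is not known, and its value may not reflect its expression.

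Other genes of the same pathways were read from 4 lists, with the same fit. Of 21 regulators of the G1/S transition, 4 rose and 10 fell in A549 (19.0% and 47.6%, against 16.4% and 15.9% of all genes). In H1650, 11 rose and 6 fell (52.4% and 28.6%, against 31.0% and 31.3%), so the share higher in A549 and the share lower in H1650 were near those of all genes. CDKN1A, the kinase inhibitor p21, rose by log2 0.37 in A549 and 0.61 in H1650. MYC, a growth-promoting transcription factor, rose by log2 0.29 and 1.09. FBXW7, which directs the destruction of cyclin E and MYC, rose by log2 0.48 in A549 and 0.165 in H1650. CCND1 and CCND3, D-type cyclins that act before cyclin E, fell in A549 and rose in H1650, with CCND1 at log2 -0.13 and 0.82 and CCND3 at -0.49 and 0.44. SKP2, which directs the destruction of the inhibitor p27, fell by log2 -0.51 in A549 and -0.74 in H1650. The kinase inhibitor CDKN2C fell in A549 by log2 -0.61 and rose in H1650 by 0.37. In H1650, RBL2, a relative of the retinoblastoma protein, and CDK6, a partner of D-type cyclins, fell by log2 -0.76 and -0.53. In A549, RBL2 fell by log2 -0.15 and CDK6 rose by 0.19.

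Of 27 origin firing and fork factors, 1 rose and 15 fell in A549 (3.7% and 55.6%, against 16.4% and 15.9% of all genes). In H1650, 8 rose and 11 fell (29.6% and 40.7%), the first near the 31.0% of all genes and the second beside 31.3%. CHTF18, part of an alternative clamp loader, was the one that rose in A549 (log2 0.34), while its partner DSCC1 fell by -0.44. CLSPN, a fork checkpoint mediator, fell in A549 by log2 -0.50, and TIMELESS, of the fork protection complex, fell by -0.33 in A549 and -0.34 in H1650. In H1650, RPA2, a subunit of the single-strand binding protein RPA, rose by log2 0.86 while its partner RPA1 fell by -0.41. POLE3, an accessory subunit of polymerase epsilon, and TOP1, a topoisomerase, rose there by log2 0.58 and 0.53. The firing kinase gene CDC7 fell in H1650 by log2 -0.59.

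All 7 genes of chromatin assembly and maintenance methylation fell in A549, against 15.9% of all genes. In H1650, 1 of the 7 rose and 3 fell (14.3% and 42.9%, against 31.0% and 31.3% of all genes). The histone chaperones ASF1B and NASP fell in A549 by log2 -0.50 and -0.29 and in H1650 by -0.29 and -0.15. CHAF1A, of the assembly factor CAF-1, fell in A549 by log2 -0.40 and rose in H1650 by 0.12, where its partner CHAF1B fell by -0.28.

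Of 14 genes of nucleotide metabolism, 2 rose and 6 fell in A549 (14.3% and 42.9%), the first near the 16.4% of all genes and the second beside 15.9%. In H1650, 2 rose and 10 fell (14.3% and 71.4%, against 31.0% and 31.3% of all genes). Genes that fell in A549 included SHMT1, a folate enzyme, and DUT, which removes dUTP (log2 -0.38 and -0.26). CAD, which begins pyrimidine synthesis, PAICS, of the purine route, and the thymidylate kinase DTYMK fell in H1650 by log2 -0.69, -0.68 and -0.63. CTPS1, which makes CTP, rose by log2 0.16 in A549 and 0.60 in H1650. RRM2B, an alternative small subunit of ribonucleotide reductase, rose in A549 by log2 0.20, and SAMHD1, which degrades deoxynucleotides, rose in H1650 by 0.56. The median of this list was -0.41 in H1650 and -0.08 in A549, whereas the median of the 48 members was -0.10 and -0.27 in the same order.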

How the data were processed

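Polyadenylated RNA of 12 libraries was grouped by cell line and treatment as labelled. The submitters' processing notes list fastp 0.20.1, featureCounts 2.0.0, STAR 2.7.7a and the build GRCh38 behind the deposited raw counts per gene. The gene annotation, the use of strand and the filter on genes are not given in the sources used here. The FPKM values deposited by the authors divide the same counts by a length that equals the genomic span for 71.4% of gene IDs, so FPKM entered alternatives only. A table of gene names gave symbols for 16076 IDs and GENCODE 29 for a further 63, which leaves 460 without one.

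Counts were fitted with edgeR 4.0.16 in R 4.3.3: low counts filtered by group (15991 genes tested), TMM scaling, and the quasi-likelihood test of 12 libraries in 4 groups with 8 residual degrees of freedom. Benjamini-Hochberg adjustment ran over all genes tested, and calls were made under 0.05. Intervals are 95% and not adjusted for the number of genes. The procedure was tested on simulated data. Total counts ran from 23876899 to 32079027, so 3 counts are worth 0.0964 to 0.123 CPM, and the median member had 1348 to 1886 counts per library. Levels per kilobase divide CPM by the union of GENCODE 29 exons.

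Values are given in full for E2F1, E2F2, E2F3, E2F7, CCNE1, CCNE2, ORC6, CDC6, CDT1, MCM5, PCNA and RRM2. They are also given for the 3 largest called rises and falls among members in each line and in the difference. From each pathway list, up to 3 genes per direction were taken by smallest adjusted p. MCM6, MCM7, GINS1, GINS3 and TIPIN, and the values of some list genes in their other line, were added after they were seen. One gene that this rule gives is not reported here. Members, lists and rules were chosen with earlier results of these data known. No 2 replicates were duplicates (chi-square per degree of freedom 2.23 to 7.35). Alternatives were DESeq2 1.42.0 and its size factors, plain totals, no filter, a replicate block, limma 3.58.1 on log2 FPKM, each line alone, and each library left out.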

Additional observations from a re-analysis of the deposited data

Results flagged for a closer look

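For 32 of the 48 members the effect of SRSF2 over-expression differed between A549 and H1650 by the interaction test in edgeR (adjusted p under 0.05 over 15991 genes). Such differences were common in all genes: 23.5% were called lower and 24.0% higher in A549, against 52.1% and 14.6% of the members. Each value below is the log2 effect in A549 minus that in H1650, from 3 libraries a group. Of the members that fell in A549 and rose in H1650, the differences were ORC6 (-1.01), CDC6 (-0.81), MCM10 (-0.74), CCNE1 (-0.67), CDT1 (-0.63), ORC1 (-0.57), RFC3 (-0.53), MCM7 (-0.49), GINS3 (-0.48), TK1 (-0.39) and MCM2 (-0.32). Members that fell in both lines and more in A549 were E2F1 (-0.59), E2F2 (-0.34), MCM5 (-0.27) and MCM3 (-0.23). Others with a lower effect in A549 were RFC1 (-0.72), POLD1 (-0.52), RFC2 (-0.40), GINS2 (-0.40), RRM2 (-0.37), RFC5 (-0.30), PRIM2 (-0.27), CDC45 (-0.23), RRM1 (-0.21) and POLA1 (-0.19); of these, CDC45, GINS2, POLA1, POLD1, RFC5, RRM1 and RRM2 fell in A549 and were not called in H1650, RFC1 and RFC2 rose in H1650 and were not called in A549, and PRIM2 was called in neither line. A higher effect in A549, that is a stronger fall in H1650, was found for POLE2 (0.39), CCNE2 (0.38), RFC4 (0.35), POLD2 (0.23), ORC2 (0.22), LIG1 (0.20) and E2F3 (0.18). Some of the smaller differences lost their call elsewhere: POLA1 with plain totals, on log2(FPKM + 0.1) and without A549 SRSF2 replicate 2, A549 SRSF2 replicate 3 or H1650 untreated replicate 3; PRIM2 with plain totals, in both FPKM fits and without A549 SRSF2 replicate 3; and ORC2 without A549 untreated replicate 2 or H1650 SRSF2 replicate 2. That of E2F3 lost it with DESeq2 and without any one of 4 libraries, and that of POLE2 on log2(FPKM + 1). No cause of these differences was tested. Groups of 3 libraries are too small for a test of single outlying libraries.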

How the results depend on the processing

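No member changed direction between called values in any of the 20 alternative settings, which include 12 fits that each left out 1 library. In A549 the number of members called lower ran from 34 to 40 with a library left out, and 0 were called higher in each of these fits; the median of the members was -0.17 on log2(FPKM + 1). In H1650 the leave-one-out fits called 12 to 14 members higher and 20 to 23 lower. With the 6 libraries of H1650 alone, 15 were called higher and 21 lower. With plain library totals 9 were called higher, with a median of -0.18 (the median of all genes then was -0.08). On log2(FPKM + 1) and log2(FPKM + 0.1), limma called 8 and 8 higher. Of all genes called, 40.9%, 40.1% and 40.0% were higher in these fits, against 49.8% in the main fit. For the difference between lines, 6 to 7 members were called higher and 23 to 26 lower with a library left out. The median of the members was -0.15 with plain totals, -0.086 on log2(FPKM + 1) and -0.13 on log2(FPKM + 0.1). The median of all genes in these fits was 0.08, 0.008 and 0.04, against 0.006 in the main fit. Between the untreated lines, 12 members were called higher and 30 to 32 lower with a library left out, and the median was -0.21 on log2(FPKM + 1). TMM factors were 0.9361 to 0.9557 in the H1650 SRSF2 libraries and 0.9953 to 1.0065 in untreated H1650. The fit on plain totals leaves these factors out. So do the FPKM fits, since FPKM divides counts by plain totals, and these fits are not separate checks of the scaling. The part of the scaling in each shift was not tested. With the authors' FPKM, MCM6 replaced MCM5 as the lowest MCM subunit, and the ratio of highest to lowest was 8.84, 9.65, 7.13 and 10.8 in untreated A549, SRSF2 A549, untreated H1650 and SRSF2 H1650, where the length used includes introns for many genes. The E2F motif share was 30.2% in the 100 bases before the start, a shorter window, and 51.2% over any listed start, an alternative chosen after seeing the data. Libraries of the same replicate number had residual correlations of -0.02 to 0.024, and the numbers do not pair them. With the replicate block the counts were 0 higher and 39 lower in A549, 14 and 22 in H1650, 7 and 25 for the difference, and 12 and 31 between the untreated lines. Few counts limit what can be said of FEN1 (2 to 37 per library) and GINS4.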
